A study of Mus musculus with 1073 samples.

Results

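The megakaryocytes and the haematopoietic progenitors of the E8.5 mouse yolk sac were compared cell by cell, gene by gene. Cells of C57BL/6 embryos were sorted by flow cytometry and sequenced singly. E8.5 Mk (megakaryocytes) were taken as TER119- CDH5- CD41+ cells and E8.5 HPC (progenitors, an erythro-myeloid population) as TER119- CDH5+ CD41+ cells. Members were all cells of these 2 groups that the authors kept, 37 Mk and 89 HPC of the 926 kept cells of the series. The labels name no treatment and no engineered allele for either group. Yolk sacs of several embryos were pooled, no cell is tied to an embryo, and each group came from 1 capture on a microfluidic chip that takes cells of a set size range, sequenced in 1 lane of the same flow cell. A group was therefore 1 sample, and a difference between the groups cannot be told apart from a difference between their captures and lanes. No test was possible, and every value below describes these cells. For scale, 3 other sorted groups are given beside some values: E8.5 EryP (primitive erythroblasts, CD41- CDH5- TER119+), E8.5 Endo (endothelium, TER119- CD41- CDH5+) and E10.5 Mk (TER119- CDH5- CD45- CD41high), the last from the other flow cell.

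Megakaryocytes are the cells that shed platelets, large and polyploid in adult marrow but often small and of low ploidy in the early embryo. They build the receptors with which platelets bind collagen, von Willebrand factor, fibrinogen and thrombin, fill alpha granules with adhesive proteins and chemokines, and assemble a platelet-specific tubulin ring. In the yolk sac the primitive erythroblasts carry embryonic haemoglobin, whereas the erythro-myeloid progenitors bud from haemogenic endothelium and give rise to definitive red cells, megakaryocytes, macrophages and granulocytes. CD41 is the platelet integrin chain encoded by Itga2b, and CDH5 is the vascular endothelial cadherin that seals endothelial junctions.

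Counts per kept cell ran from 2625003 to 5234733 in Mk (median 3536330) and from 883020 to 2586615 in HPC (median 1555237), so the Mk cells were the more deeply sequenced. The median number of genes with a count was 8666 in Mk and 9053 in HPC. Of 53 captured Mk cells 37 were kept and of 90 HPC cells 89, and the 16 Mk cells left out had 14139 to 1678992 counts. No 2 cells held the same counts or the same name. Since embryos of both sexes were pooled, a cell with both Xist and Y-linked counts, at least 5 of each, was taken as a sign of mixed RNA. Such cells made up 16 of 37 Mk and 40 of 89 HPC cells (59 of 79 E8.5 Endo, 30 of 66 E8.5 EryP and 8 of 73 E10.5 Mk).

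The 2 genes of the sort went with the gates. Cdh5 had at least 1 count in 5 of 37 Mk and 83 of 89 HPC cells, and at least 10 counts in 3 and 76. Itga2b lay at 7.30, 138.2 and 614 CPM in the lowest, median and highest Mk cell and at 0, 62.5 and 803 CPM in HPC, where CPM are depth-scaled counts (counts per 1e6) as the authors scaled them, so that both groups held this transcript and differed in its mean by 1.77-fold. Itga2b also had a count in 72 of 79 E8.5 Endo cells and in 37 of 66 E8.5 EryP cells. Because the gates selected on both proteins, neither gene is a result.

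A gene was described where it had a mean of 10 CPM or more and a count in 10% or more of the cells in either group, which 8954 of 15967 genes did. Its difference was the ratio of (mean CPM + 1), and 2-fold was taken as the line. By this rule 560 genes (6.25%) were higher in Mk and 996 genes (11.1%) higher in HPC, while 7398 stayed within 2-fold. At 4-fold the shares were 1.20% and 4.77%. Averaging logs over cells gave 336 and 1364 genes, and all captured cells gave 455 and 1750. The median log2 ratio over all described genes was 0.035 on these scaled values, -0.18 with logs averaged and lower still over all captured cells. Of the genes higher in Mk 288 met the level and cell limits in Mk alone, and of those higher in HPC 646 in HPC alone, so that a part of each count was set by these limits. Without the cells holding both Xist and Y-linked counts the shares were 9.28% and 13.2%. Of the 96 genes past 2-fold chosen by the naming rule, 89 stayed so without those cells, while Rab27b (log2 ratio 0.76), Ldb1 (-0.15), Tek (-0.26), Plac8 (0.74), Kif11 (-0.82), Lin28a (-0.43) and Pfkm (0.68) did not. No described gene lacked counts in HPC, and 71 lacked any in Mk. Of the 5 described genes Xist and 4 Y-linked genes, 3 (60%, against 11.1%) were higher in HPC, namely Kdm5d, Eif2s3y and Uty, and none in Mk. Xist had a log2 ratio of 0.51 and Ddx3y of -0.48, and without the cells holding both they stood at 2.16 and -1.28. The share of male and female cells in each group was not tested.

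**Figure D1:**
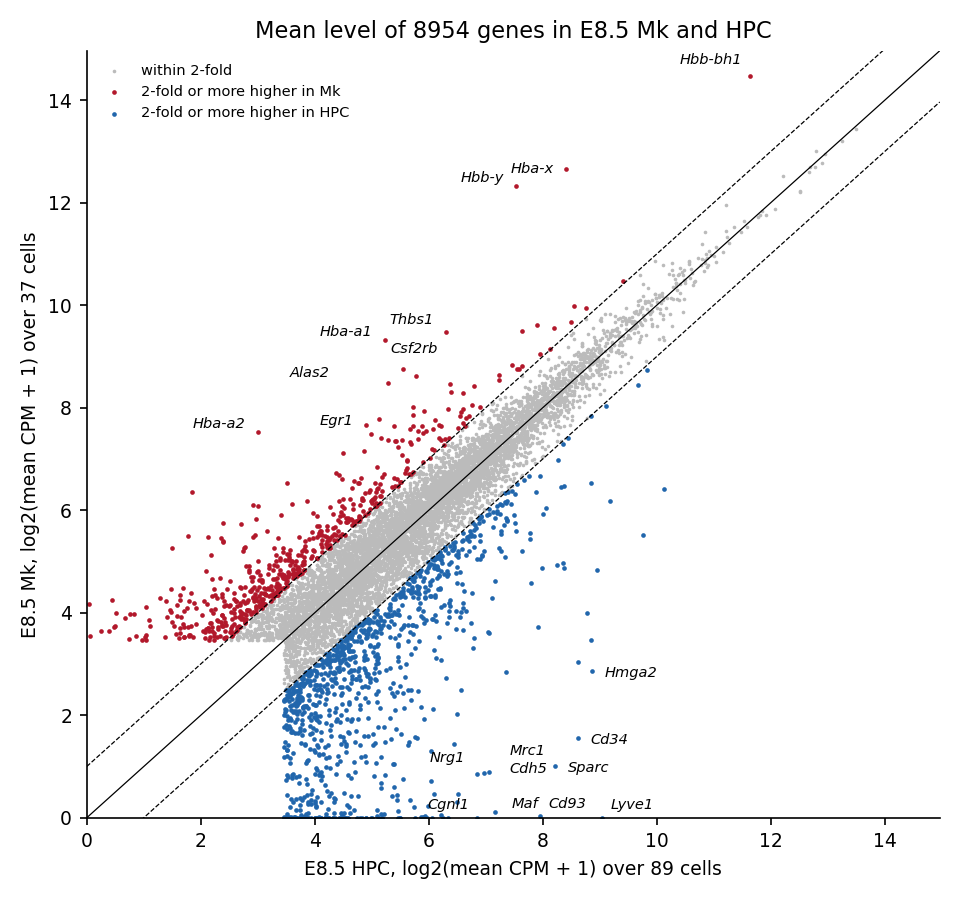
Mean level of each of the 8954 described genes in E8.5 HPC (horizontal, log2 of mean CPM + 1, 89 cells) and E8.5 Mk (vertical, 37 cells). Dashed lines mark 2-fold, red points are the 560 genes higher in Mk and blue points the 996 genes higher in HPC, and genes among the 10 farthest apart in each direction, of those well expressed, are named, with globins at the top and genes higher in HPC along the bottom right.

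Well expressed genes were those averaging at least 100 CPM and found in at least 50% of the cells of either group. Among the 10 of them farthest towards Mk were the embryonic and adult-type globins Hbb-y, Hba-a2, Hba-x, Hba-a1 and Hbb-bh1, the haem enzyme gene Alas2, the cytokine receptor gene Csf2rb, the granule gene Thbs1 and the immediate early gene Egr1. The 10 farthest towards HPC were Lyve1, Cd93, Sparc, Cd34, Maf, Cgnl1, Mrc1, the gate gene Cdh5, Hmga2 and Nrg1. Globins thus led the Mk side. On the HPC side Lyve1, Mrc1 and Cd34 were among the endothelial genes listed for this comparison, Cd93 and Cd34 among the progenitor receptors, and Hmga2 among the embryonic timing genes.

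Of the platelet receptor and granule genes listed for this comparison, 13 were 2-fold or more higher in Mk. Of these, 9 had a window in the set of RefSeq promoters used here. The 6 of the 9 with the highest ratio of means are shown, to set the sequence before these genes beside their levels. Each runs from 250 bases before to 50 bases after the RefSeq start (GRCm38.p6), 5′ to 3′ along the gene's own strand. Capitals mark the letters of GATA sites (AGATAA or TGATAA) and ETS sites (AGGAAG or CGGAAG) on either strand, the letters that GATA1 and FLI1, both megakaryocyte regulators, are known to recognise. The windows are F2rl2 (chr13:95696670-95696969, plus strand), Pf4 (chr5:90772185-90772484, plus strand), Cd9 (chr6:125494711-125495010, minus strand), Ltbp1 (chr17:75005279-75005578, plus strand), Gp1ba (chr11:70638872-70639171, plus strand) and Clec1b (chr6:129397047-129397346, plus strand).
F2rl2: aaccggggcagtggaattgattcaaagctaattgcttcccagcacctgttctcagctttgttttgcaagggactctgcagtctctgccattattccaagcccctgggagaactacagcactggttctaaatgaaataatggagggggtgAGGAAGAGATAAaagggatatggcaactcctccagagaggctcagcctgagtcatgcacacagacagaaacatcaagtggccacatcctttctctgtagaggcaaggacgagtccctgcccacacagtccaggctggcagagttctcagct
Pf4: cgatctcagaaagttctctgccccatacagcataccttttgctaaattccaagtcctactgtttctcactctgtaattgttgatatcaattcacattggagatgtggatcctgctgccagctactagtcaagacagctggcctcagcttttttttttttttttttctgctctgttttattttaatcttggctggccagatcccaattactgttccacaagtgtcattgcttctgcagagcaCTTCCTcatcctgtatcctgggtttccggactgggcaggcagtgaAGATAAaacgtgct
Cd9: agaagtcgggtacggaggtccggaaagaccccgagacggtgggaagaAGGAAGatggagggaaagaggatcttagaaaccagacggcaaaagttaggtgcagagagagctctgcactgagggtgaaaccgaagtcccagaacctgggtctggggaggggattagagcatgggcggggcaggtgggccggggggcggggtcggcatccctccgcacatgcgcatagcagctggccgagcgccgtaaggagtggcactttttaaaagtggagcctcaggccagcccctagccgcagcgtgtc
Ltbp1: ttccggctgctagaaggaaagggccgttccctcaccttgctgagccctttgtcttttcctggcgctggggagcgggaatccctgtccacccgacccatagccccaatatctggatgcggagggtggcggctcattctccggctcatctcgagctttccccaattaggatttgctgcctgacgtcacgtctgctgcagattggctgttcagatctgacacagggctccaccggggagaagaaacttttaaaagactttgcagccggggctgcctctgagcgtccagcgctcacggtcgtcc
Gp1ba: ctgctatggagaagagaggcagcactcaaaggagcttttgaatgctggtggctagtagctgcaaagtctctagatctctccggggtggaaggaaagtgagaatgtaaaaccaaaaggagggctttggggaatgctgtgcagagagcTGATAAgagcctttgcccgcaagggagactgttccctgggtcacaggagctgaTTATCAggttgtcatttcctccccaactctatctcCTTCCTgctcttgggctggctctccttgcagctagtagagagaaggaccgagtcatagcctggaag
Clec1b: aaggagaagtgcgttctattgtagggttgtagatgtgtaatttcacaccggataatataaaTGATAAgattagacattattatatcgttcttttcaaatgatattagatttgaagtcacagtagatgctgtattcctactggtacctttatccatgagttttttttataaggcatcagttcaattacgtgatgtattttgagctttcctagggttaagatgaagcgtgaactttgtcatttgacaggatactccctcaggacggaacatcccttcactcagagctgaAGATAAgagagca

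The F2rl2 window held 1 GATA match, 95 bases before the start, which directly followed an ETS match. Pf4 held an ETS match on the opposite strand 9 bases before the start and a GATA match 36 bases after it. Gp1ba had 2 GATA matches, the nearer 51 bases before the start, and 1 ETS match at 16 bases. Clec1b had 2 GATA matches and no ETS match, Cd9 1 ETS match and no GATA match, and Ltbp1 neither. Over all 32851 promoter windows of this length, 18.6% held a GATA match, 46.5% an ETS match and 7.70% both, so either match alone is common. A match describes letters and not a bound site. Thbs1 and Vwf had no entry in this table.

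The platelet surface receptors leaned towards Mk. Of 22 listed genes 15 were described, and 7 of these (46.7%, against 6.25% of all described genes) were higher in Mk, 1 (6.67%, against 11.1%) was higher in HPC and 7, the gate gene Itga2b among them, were within 2-fold. The median log2 ratio was 0.94, and 1.00 over the 14 genes without Itga2b. Over all captured cells 2 of 15 were higher in Mk (against 5.21% of all described genes) and 2 in HPC (against 20.03%). There Gp1ba (log2 ratio 0.88), Clec1b (0.90) and Treml1 (0.69) were under 2-fold, and the median of all genes was -0.42. F2rl2, which encodes the thrombin receptor PAR3, lay at 0, 224 and 1747 CPM in the lowest, median and highest Mk cell and at 0, 0.887 and 1237 CPM in HPC. Mk cells were mostly high and the HPC median was under 1 CPM, yet the groups overlapped, with 33 of 37 Mk cells above the HPC median and 12 of 89 HPC cells above the Mk median, and the mean was 4.24-fold higher in Mk. Cd9, a tetraspanin of the platelet membrane, ran through 0.794, 171 and 1075 CPM in Mk and 0, 60.4 and 273 CPM in HPC. Here nearly every cell of both groups had the transcript, and its mean level differed by 3.12-fold.

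Gp1ba, the chain of the von Willebrand factor receptor that holds its binding site, was found in 31 of 37 Mk and 49 of 89 HPC cells, at 0, 41.0 and 343 CPM against 0, 1.22 and 336 CPM (lowest, median, highest), a 2.59-fold difference of means. Its partner Gp9 (chosen after its values were seen, like Itgb3 below) stayed within 2-fold, with means of 21.7 and 14.2 CPM. Clec1b, the podoplanin receptor, had a mean 2.51-fold higher in Mk but medians of only 8.71 and 3.03 CPM, so most cells of either group held little of it. Treml1, a receptor stored in platelet granules, was 2.37-fold higher in Mk, and its highest cell was an HPC cell at 271 CPM. Itgb3, the beta chain that pairs with CD41 to form the fibrinogen receptor, had a count in every cell of both groups, at 13.8, 412 and 1422 CPM in Mk and 1.54, 147.9 and 969 CPM in HPC. Its mean was 2.26-fold higher in Mk, with 27 of 37 Mk cells above the HPC median.

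Other receptors did not follow. F2rl3, the thrombin receptor PAR4, and Pear1, a platelet contact receptor, had log2 ratios of -0.10 and -0.04, so their means lay close together. Itga6, the laminin receptor chain, went the other way, at 0, 0.698 and 175 CPM in Mk and 0, 62.5 and 374 CPM in HPC. Of the HPC cells 82 of 89 lay above the Mk median of Itga6, and its mean was 4.36-fold higher in HPC, while E8.5 Endo had a mean of 279 CPM.

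The granule and secretion genes leaned less to 1 side. Of 23 listed genes 18 were described, with 6 (33.3%, against 6.25%) higher in Mk, 3 (16.7%, near the 11.1% of all described genes) higher in HPC and a median log2 ratio of 0.12. Of the 6 genes 1 met the level and cell limits in Mk alone, and of the 3 genes 2 met them in HPC alone. Thbs1 (chr2:118111876-118127133 in GRCm38), which encodes the adhesive alpha granule protein thrombospondin-1, lay at 2.72, 492 and 2585 CPM in Mk and 0, 1.36 and 1870.2 CPM in HPC. Each of the 37 Mk cells was above the HPC median and 4 of 89 HPC cells were above the Mk median, and the mean was 8.95-fold higher in Mk. Vwf, the platelet-tethering ligand of the GP1B receptor, was carried by 22 of 37 Mk and 15 of 89 HPC cells, and with every cell thinned to 880000 counts by 48.6% and 15.7%. Its mean was 5.53-fold higher in Mk, at 35.9 against 5.67 CPM.

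Pf4, the chemokine platelet factor 4, ran through 0, 15.2 and 1236 CPM in Mk and 0, 10.9 and 624 CPM in HPC. The medians lay side by side while the means differed by 3.86-fold, and the highest of the 37 Mk cells alone held 20.5% of the Mk sum. With the cells thinned to a common depth 73.0% of Mk and 74.2% of HPC cells had Pf4, so the share of cells with it did not separate the groups. Rab27b, a GTPase of granule release, had means of 447 and 198 CPM with 30 of 37 Mk cells above the HPC median, and a log2 ratio of 0.67 over all captured cells. For Ltbp1, a latent TGF-beta binding protein, 1 Mk cell held 31.2% of the summed level, and the mean was 2.64-fold higher in Mk.

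On the HPC side of the granule list stood Rab38 (log2 ratio -2.48), a GTPase of organelle traffic, F13a1 (log2 ratio -1.89), the factor XIII A chain, and Mmrn1 (log2 ratio -1.56), the factor V carrier multimerin. The log2 ratio of F13a1 was -0.65 with logs averaged over cells, and that of Mmrn1 -0.083 without the globin-rich cells (globins over 1% of counts). Mmrn1 was found in 17 of 37 Mk and 75 of 89 HPC cells at 0, 0 and 519 CPM and 0, 61.7 and 1539.7 CPM. Vamp8 (log2 ratio -0.02), a fusion protein of granule release, and Clu (log2 ratio -0.18), encoding clusterin, were level. Ppbp, a platelet chemokine gene named here after its values were seen, had no count in 37 Mk cells, which allows a share of cells with a count of up to 8.11% (3 of 37), and counts in 4 of 89 HPC cells, beside a mean of 318 CPM in E10.5 Mk.

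**Figure D2:**
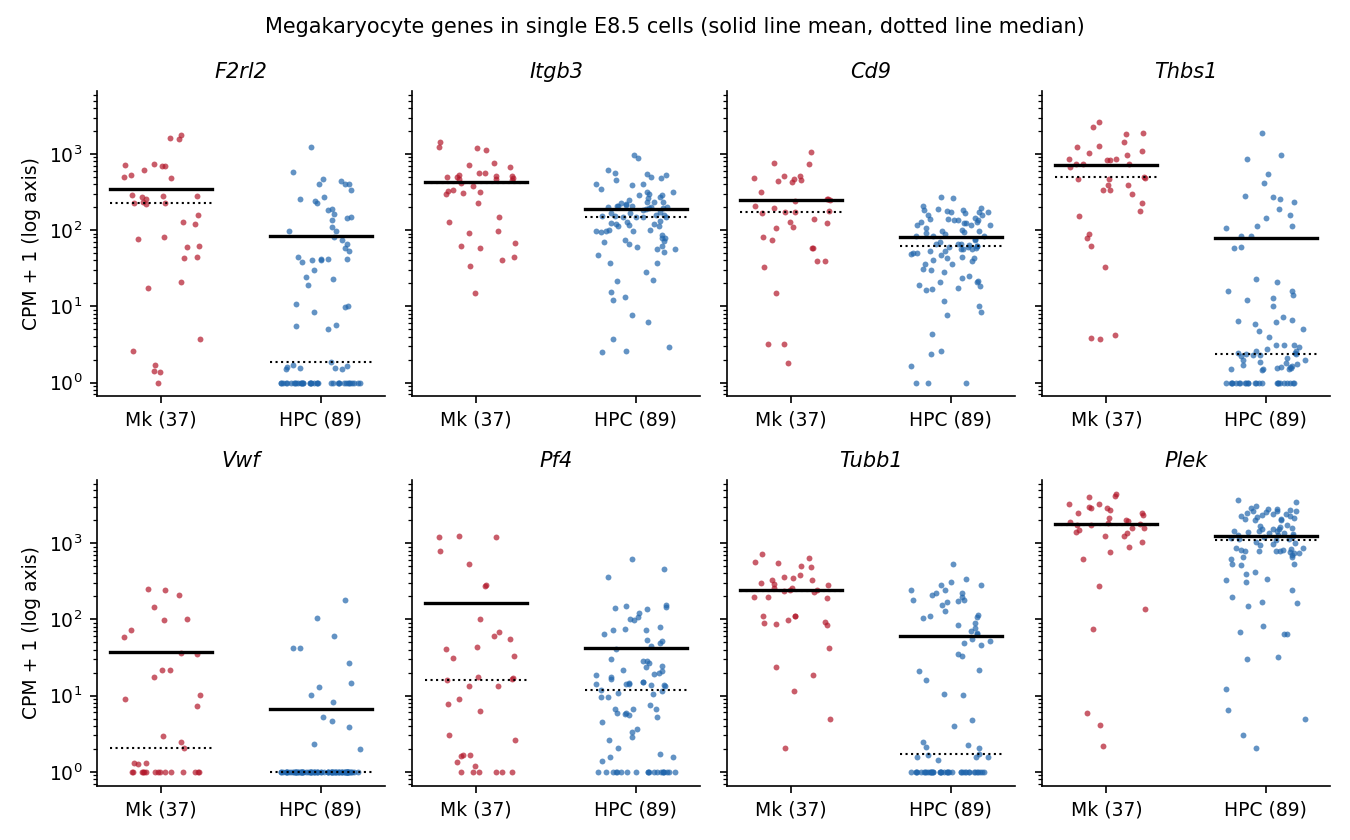
Level of 8 megakaryocyte genes in each of 37 E8.5 Mk and 89 E8.5 HPC cells, as CPM + 1 on a log axis, 1 point per cell, with the mean as a solid and the median as a dotted line. Thbs1, F2rl2 and Tubb1 were present in nearly all Mk cells and near 0 in many HPC cells, whereas Plek and Itgb3 were spread over both groups and Pf4 and Vwf were high in few cells.

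In the list of cytoskeletal and signalling genes 6 of 24 described members (25.0%, against 6.25% of all described genes) were higher in Mk, 3 of them with levels that met the limits in Mk alone, none was higher in HPC (against 11.1%), and the median log2 ratio was 0.51. Tubb1, the beta-tubulin of the platelet ring, lay at 1.02, 232 and 726 CPM in Mk and 0, 0.708 and 535 CPM in HPC. All 37 Mk cells were above the HPC median, 7 of 89 HPC cells were above the Mk median, and the mean was 4.05-fold higher in Mk. No E8.5 Endo cell of 79 had a count of Tubb1, which allows a share with a count of up to 3.80% (3 of 79), and 23 of 66 E8.5 EryP cells had one. Tbxas1 (thromboxane synthase, log2 ratio 2.44), Alox12 (a platelet lipoxygenase, log2 ratio 2.06) and Lat (an adaptor of collagen receptor signalling, log2 ratio 1.05) were also higher in Mk. Lat, however, was at 0.58 over all captured cells and Alox12 at 0.90 with logs averaged over cells. Tbxas1 and Alox12 had counts in only 15 and 16 of 37 Mk cells.

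For Arhgef3, which encodes a guanine nucleotide exchange factor, a single Mk cell held 78.5% of the summed level, and the log2 ratio of 1.39 became -0.063 when logs were averaged over cells. Plek, the pleckstrin of platelets, was high in both groups, with means of 1805 and 1237 CPM and no count in any of 66 E8.5 EryP cells. The log2 ratio of Plek was 0.54 with all cells and 1.20, past 2-fold, without the globin-rich cells. The talin gene Tln1 (log2 ratio 0.48) and the myosin heavy chain gene Myh9 (log2 ratio -0.34) stayed within 2-fold.

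The transcription factors shared by megakaryocytes and red cells went both ways. Of 23 described factors 3 (13.0%, against 6.25% of all described genes) were higher in Mk and 4 (17.4%, against 11.1%) higher in HPC, with a median log2 ratio of 0.19. Of the 3 factors 1 met the level and cell limits in Mk alone, and of the 4 factors 2 met them in HPC alone. Klf1, the erythroid Krüppel-like factor, had medians of 17.4 and 0 CPM and a mean 2.96-fold higher in Mk, but turned to a log2 ratio of -1.28 without the globin-rich cells. Gfi1b, a repressor needed in both lineages, lay at 0.249, 257 and 1864 CPM in Mk and 0, 100.99 and 993 CPM in HPC, a 2.46-fold difference of means.

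Runx1 (log2 ratio -0.19), Meis1 (log2 ratio -0.37) and Mef2c (log2 ratio 0.19), factors of blood emergence and megakaryocyte growth, lay within 2-fold, though Meis1 was at -1.19 with logs averaged. So did Gata1 and Fli1, named here after their values were seen, with Gata1 at 0.584, 375 and 939 CPM in Mk and 0, 132.2 and 722 CPM in HPC. Gata1 had a count in 37 of 37 Mk and 69 of 89 HPC cells, and a mean 1.97-fold higher in Mk, just inside the line. Bcl11a, a regulator of globin switching and lymphoid fate, had 3 counts in 1 of 37 Mk cells but was found in 58 of 89 HPC cells, with a mean of 59.9 CPM there. Ldb2, a LIM-domain binding protein of endothelium, had no count in Mk and was found in 59 of 89 HPC cells, with a mean of 28.9 CPM there. The related Ldb1 was 2.60-fold higher in HPC by its mean, but a single HPC cell held 64.1% of the summed level and the medians were 11.2 and 8.66 CPM. Ikzf1, the Ikaros factor, was at the line with a log2 ratio of -1.02.

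**Figure D3:**
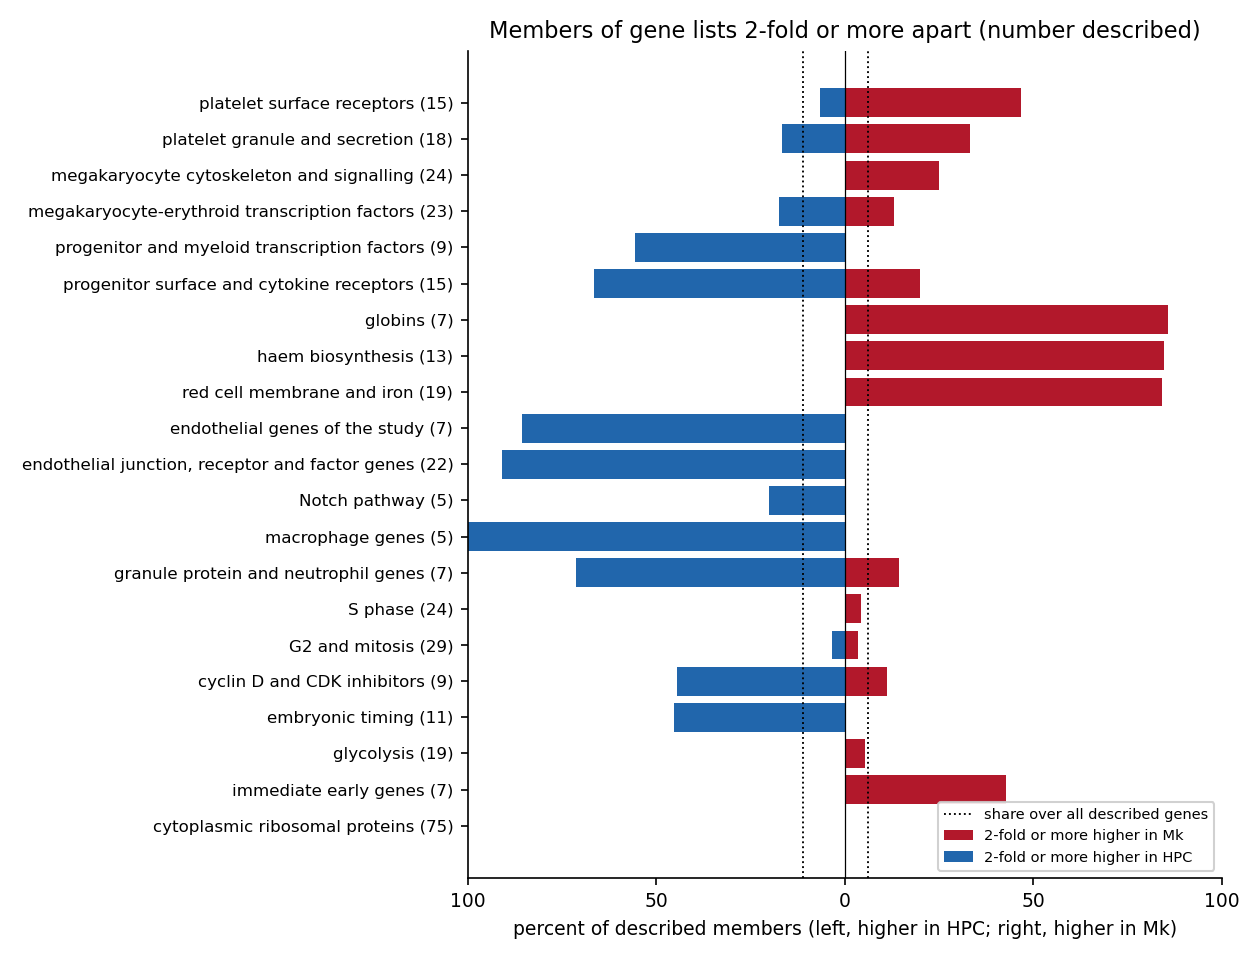
Percent of the described members of each gene list shown (the X and Y genes are not) that were 2-fold or more higher in E8.5 Mk (red, right) or E8.5 HPC (blue, left). The number of described members is in brackets and the shares over all 8954 described genes (6.25% and 11.1%) are dotted lines. Globin, haem and red cell lists reached 84.2% or more on the Mk side, the endothelial lists 85.7% (with the gate gene Cdh5) and 90.9% on the HPC side, and the ribosomal protein list 0 on both.

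Of the described progenitor and myeloid factors and receptors, more were higher in HPC than in Mk. Of 9 described progenitor and myeloid transcription factors 5 (55.6%, against 11.1% of all described genes) were higher in HPC and none was higher in Mk (against 6.25%), and of 15 described surface and cytokine receptors 10 (66.7%) were higher in HPC and 3 (20.0%) in Mk. Of those higher in HPC, 4 of the 5 factors and 8 of the 10 receptors met the limits in HPC alone, which favoured this direction. Cd34, the sialomucin of progenitors and endothelium, lay at 0, 0 and 71.7 CPM in Mk and 0, 339 and 1459.7 CPM in HPC, and was found in 3 of 37 and 86 of 89 cells. Of the 3 positive Mk cells 1 reached 71.7 CPM, within the HPC range, and the other two had under 10 counts. Cd93, a lectin-like receptor of progenitors and vessels, had 5 counts in 1 Mk cell against 83 of 89 HPC cells with a median of 173 CPM. Kit, the stem cell factor receptor (named after its values were seen), lay at 0, 0.733 and 309.8 CPM in Mk and 0, 69.3 and 525 CPM in HPC.

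Among the factors, Myb, needed for definitive but not primitive blood, lay at 0, 1.40 and 102.9 CPM in Mk and 0, 21.1 and 260.4 CPM in HPC, 2.65-fold higher in HPC by the mean. Id2 (log2 ratio -3.27) and Id3 (log2 ratio -4.78), inhibitors of bHLH factors, and the ETS factor gene Erg (log2 ratio -1.67) were also higher in HPC. With a pseudocount of 10 CPM Erg was at -0.87, under 2-fold. Mecom, a stem cell factor, had no count in Mk and in HPC was found in 27 of 89 cells, of which 1 held 39.0% of the summed level. Hhex, Myc and Mycn stayed within 2-fold, though Mycn was at -1.36 with logs averaged over cells and at -1.20 over all captured cells. The growth factor receptor genes Csf3r and Csf1r and the protein C receptor gene Procr had no count in any Mk cell and were found in 54, 35 and 45 of 89 HPC cells.

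The 3 receptors on the Mk side belong to erythroid and common beta chain signalling. Epor, the erythropoietin receptor, was found in 36 of 37 Mk cells and 59 of 89 HPC cells, at 0, 64.1 and 351 CPM and 0, 8.07 and 388 CPM, and E8.5 EryP had a mean of 110.1 CPM. Csf2rb, the beta chain common to the GM-CSF and several interleukin receptors, lay at 0, 141.7 and 3442 CPM in Mk and 0, 0 and 888 CPM in HPC, with 35 of 37 Mk cells above the HPC median and a 9.16-fold difference of means. Its near-identical copy Csf2rb2 was 8.08-fold higher in Mk, and reads shared by the pair make the split between them uncertain. Without the globin-rich cells their log2 ratios were 0.23 for Csf2rb and 0.62 for Csf2rb2, under 2-fold.

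Macrophage and granulocyte genes were sparse in Mk. Of 16 listed macrophage genes 5 were described, and 4 of these met the limits in HPC alone, so that the limits favoured this direction. The fifth, Fcer1g, an Fc receptor chain, had a log2 ratio of -1.07, and of 0.40 without the globin-rich cells. Summed over the 16 genes, the Mk cells lay at 0, 6.17 and 340.6 CPM and the HPC cells at 0, 165.8 and 1299.8 CPM. Of 7 described granule protein and neutrophil genes 5 (71.4%, against 11.1%) were higher in HPC, 3 of them meeting the limits in HPC alone, and 1 (14.3%, against 6.25%) was higher in Mk and met them in Mk alone. That gene, Plac8, had a log2 ratio of 1.42, which turned to -1.65 without the globin-rich cells. Fcgr3, an Fc receptor, had a count in 2 of 37 Mk and 60 of 89 HPC cells, at HPC values of 0, 22.4 and 445 CPM. Mpo, the myeloperoxidase of granulocyte precursors, was in no Mk cell and in 38 of 89 HPC cells, with a mean of 15.1 CPM there. Coro1a, an actin regulator of leucocytes, lay at 0, 0 and 163 CPM in Mk and 0, 44.7 and 435 CPM in HPC, with 68 of 89 HPC cells above the Mk median. Lcp1 and Laptm5 were higher in HPC too, with log2 ratios of -5.63 and -1.09. Without the globin-rich cells Laptm5 was at -0.83, under 2-fold. Of the defining macrophage genes, named after their values were seen, C1qb, C1qc and Cx3cr1 had counts in no Mk cell and in 3 of 89 HPC cells each, Itgam in 2 HPC cells, and C1qa and Adgre1 in no cell of either group. The neutrophil gene Elane had none in either group.

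Red cell genes separated the groups most towards Mk. Of 7 described globins 6 (85.7%, against 6.25% of all described genes) were higher in Mk with a median log2 ratio of 4.24, of 13 haem biosynthesis genes 11 (84.6%) with a median of 1.72, and of 19 red cell membrane and iron genes 16 (84.2%) with a median of 1.86, and no gene of the 3 lists was higher in HPC. Of those higher in Mk, 2 globins, no haem gene and 7 membrane and iron genes met the limits in Mk alone. Hbb-bh1, the embryonic beta-like globin, lay at 19.2, 21452 and 58584 CPM in Mk and 1.61, 112.7 and 26745 CPM in HPC. Every cell of both groups thus had a count, 35 of 37 Mk cells were above the HPC median, and the mean was 7.09-fold higher in Mk. In E8.5 EryP the mean was 56134 CPM and in E8.5 Endo, the background of a cell type without globin, 2.20 CPM.

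Hba-x, the embryonic alpha-like zeta globin, ran through 9.41, 1646 and 31636 CPM in Mk and 0, 4.02 and 7347 CPM in HPC, with all 37 Mk cells above the HPC median. Hbb-y, the epsilon-like globin, ran through 0.661, 100.2 and 50600.4 CPM and 0, 1.47 and 6359 CPM, and 1 Mk cell held 26.7% of the Mk sum. Hba-a1 and Hba-a2 were 16.9-fold and 23.0-fold higher in Mk, although these near-identical copies share reads, as do Hbb-bs (log2 ratio 4.50) and Hbb-bt (log2 ratio 0.35). Summed over the globin genes, their share of a cell's counts was 0.00445%, 2.69% and 12.0% in the lowest, median and highest Mk cell, 0.000473%, 0.0136% and 3.70% in HPC and 4.25%, 8.94% and 17.1% in EryP. The Mk cells therefore spread from the progenitor range up into the erythroblast range.

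Alas2, the erythroid enzyme that starts haem synthesis, lay at 0, 168 and 1530.3 CPM in Mk and 0, 0 and 522 CPM in HPC, and was found in 35 of 37 and 33 of 89 cells. Uros, a later enzyme of the pathway, was 6.32-fold higher in Mk, with only 2 of 89 HPC cells above the Mk median. Slc25a37, the mitochondrial iron importer mitoferrin, and Cpox and Fech, late enzymes of the pathway, were 4.40-fold, 3.95-fold and 3.80-fold higher. Without the globin-rich cells their log2 ratios were -1.02, -1.98 and 0.62, so that the first 2 turned and the third fell under 2-fold. Alas1, the housekeeping form of the first enzyme, was not higher in Mk (log2 ratio -0.57). It was past 2-fold towards HPC over all captured cells (-1.20) and without the cells holding both Xist and Y-linked counts (-1.59).

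Of the red cell membrane and iron genes, Trim10 (log2 ratio 2.53), Epb42 (log2 ratio 2.50) and Ermap (log2 ratio 2.76) were higher in Mk, and turned to -1.23, -1.38 and -0.027 without the globin-rich cells. Kel, a blood group antigen, was 13.5-fold higher, with 48.2% of the Mk sum in 1 cell, and had a log2 ratio of -0.23 without the globin-rich cells. Gypc, Epb41 and the glucose transporter gene Slc2a1 lay within 2-fold, at log2 ratios of 0.92, 0.71 and 0.34. Gypc was past 2-fold with logs averaged over cells (1.35) and without the globin-rich cells (1.32). Leaving out the 27 Mk and 10 HPC cells whose globins exceeded 1% of counts, a cut with 9 Mk and 18 HPC cells between 0.5% and 2%, 5 of 13 haem and 4 of 10 membrane and iron genes were 2-fold or more higher in the 10 Mk cells left, where Alas2 had a log2 ratio of 0.38. The globins themselves were what the cells were left out by, so their difference cannot be read in the rest. Other erythroid genes went with the globins among the Mk cells. The mean haem sum was 1519 CPM at or under the cut and 3728 CPM over it, and Klf1 averaged 1.98 and 36.9 CPM. Falls and turns of erythroid genes at this setting are therefore in part built in by the cut. With the globin-rich cells left out 12 of 16 platelet receptors were higher in Mk, against 7 of 15 with all cells. The gate gene Itga2b, within 2-fold with all cells, was among the 12 at a log2 ratio of 1.20 and is not a result. The share of all described genes higher in Mk rose as well, to 12.2% against 6.25%.

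Platelet and erythroid transcripts were found in the same Mk cells. At least 1 of Gp1bb, Gp9, Vwf and Pf4 together with Alas2, a set chosen after its values were seen, was detected in 34 of 37 Mk cells (91.9%, exact Clopper-Pearson 95% interval 78.1% to 98.3%) and in 31 of 89 HPC cells (34.8%, 25.0% to 45.7%). The same held in 20 of 66 EryP cells (30.3%, 19.6% to 42.9%), in 4 of 79 Endo cells (5.06%), of which 32.9% had 1 or more of the 4 platelet genes, Vwf being also an endothelial gene, and in 3 of 73 E10.5 Mk cells (4.11%). With every cell thinned to 880000 counts the shares were 73.0% of Mk, 33.7% of HPC and 3.80% of Endo, and with 10 counts asked of each gene 67.6% of Mk, 16.9% of HPC and 0 of Endo, where EryP stood at 15.2%. Without cells holding both Xist and Y-linked counts, they were 18 of 21 Mk cells (85.7%) and 17 of 49 HPC cells (34.7%). The intervals cover counting error only, as reads without molecular identifiers are not independent molecules. The share was lower in HPC than in Mk at each of these settings, and mixed RNA from 2 cells could not be told apart from 1 cell with both programmes in these counts.

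Summed over 44 platelet genes (the receptor and granule lists without Itga2b), Mk cells held 1391, 2738 and 12140 CPM (lowest, median, highest) and HPC cells 524, 1850 and 5971 CPM, beside 9243, 18956 and 61168 CPM in E10.5 Mk and 143.4, 554 and 1627 CPM in E8.5 EryP. Of the Mk cells 29 of 37 were above the HPC median and 9 above the highest HPC cell, yet the E8.5 and E10.5 Mk medians lay far apart. Summed over the 13 haem genes, Mk held 771, 2618 and 7740 CPM, HPC 267, 718 and 3302 CPM and EryP 4881, 8931 and 17864 CPM. All 37 Mk cells exceeded the HPC median of the haem sum, and 13 exceeded the highest HPC cell.

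**Figure D4:**
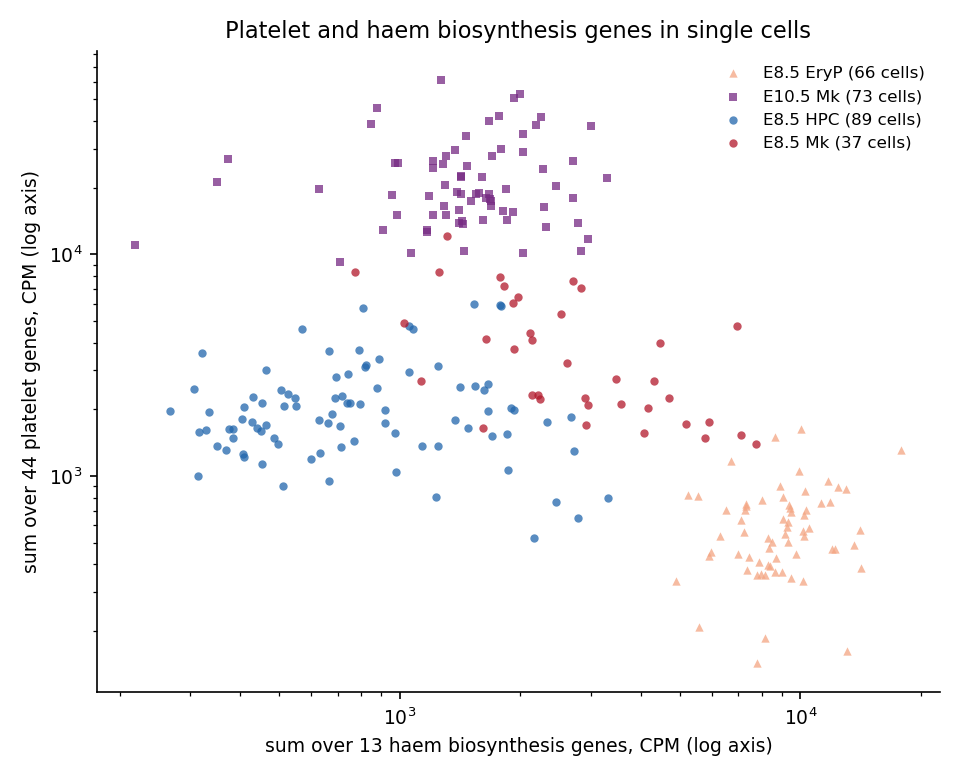
Summed level of 13 haem biosynthesis genes (horizontal) and of 44 platelet genes (vertical) in each cell, both in CPM on log axes, for E8.5 Mk, E8.5 HPC, E8.5 EryP and E10.5 Mk. The E8.5 Mk cells, with medians of 2618 and 2738 CPM, lie between the EryP cells at the lower right, the E10.5 Mk cells at the top and the HPC cells at the lower left.

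Within the Mk gate the 2 sums varied in opposite ways between the globin-poor and globin-rich cells. The 10 Mk cells with globins at or under 1% of counts had a median platelet sum of 6787 CPM and the 27 others one of 2250 CPM, while the median haem sums were 1542 and 2942 CPM. Pf4 had means of 503 and 37.5 CPM in these cells, and F2rl2 of 711 and 217 CPM. Of the 44 platelet genes 33 had the higher mean in the globin-poor cells, 6 in the globin-rich cells and 5 no count in either, and Vwf (14.4 and 43.8 CPM) and, chosen after its values were seen, Jam3 (7.24 and 33.2 CPM) were among the 6. The same count was not made over all genes, so these numbers cannot be read as particular to platelet genes. Thbs1 (725 and 703 CPM), Tubb1 (294 and 224 CPM) and Gata1 (400.3 and 389 CPM) were close. The split is a range on 1 measure, not a pair of cell types. At its ends, the cell with the least globin held 1190.5 CPM of Pf4 and 1820.3 CPM of Thbs1, and the cell with the most globin 0.681 CPM of Pf4, 2.72 CPM of Thbs1, 0.340 CPM of Fli1 and 559 CPM of Gata1.

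Endothelial genes stood on the HPC side nearly throughout. Of 6 described endothelial genes that the study used, leaving out the gate gene Cdh5, 5 were higher in HPC, and of 22 further junction, receptor and factor genes 20 (90.9%, against 11.1% of all described genes), with a median log2 ratio of -4.38 (-4.93 with the 7 genes without Mk counts set at a floor of 3 counts over the 37 cells), and none of either list was higher in Mk. Of these 20 genes 17 met the limits in HPC alone, as did 4 of the 6 called genes of the study, Cdh5 counted. The limits thus favoured this direction. HPC were also sorted as CDH5+ and Mk as CDH5-, so the direction cannot be told apart from a sort on an endothelial protein. Without the cells holding both Xist and Y-linked counts, 6 genes of the study were still described, Cdh5 counted with them. Of these 3 were higher in HPC, against 13.2% of all described genes. These lists share Cd34 with the progenitor list. Csf1r was likewise counted in the receptor and macrophage lists, and Bcl11a in the megakaryocyte-erythroid factor and embryonic timing lists. The shares higher in HPC are thus not all separate. Lyve1 (chr7:110850607-110863239 in GRCm38), the hyaluronan receptor of yolk sac and lymphatic vessels, had no count in 37 Mk cells and lay at 0, 102.8 and 5839 CPM in HPC, with a mean of 525 CPM. Ramp2, a co-receptor for adrenomedullin, Ecscr, an endothelial surface protein, and Nrp1, a VEGF co-receptor, also had no count in Mk and were found in 61, 63 and 45 of 89 HPC cells. Mrc1, the mannose receptor, had counts in 1 Mk and 73 HPC cells.

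A few endothelial genes were shared. Tek, the angiopoietin receptor, was found in 28 of 37 Mk and 87 of 89 HPC cells, at 0, 23.0 and 512 CPM and 0, 89.9 and 1191 CPM. Pecam1 had means of 53.6 and 65.3 CPM and Podxl of 37.4 and 37.0 CPM, both also made by platelets or progenitors, though Pecam1 was at a log2 ratio of -1.25 with logs averaged and Podxl at 1.20 without the globin-rich cells. Summed over the 33 further genes, the Mk cells lay at 2.76, 222 and 1453 CPM and the HPC cells at 36.2, 1738 and 16956 CPM, with no Mk cell above the HPC median, beside a median of 12839 CPM in E8.5 Endo. Outside the lists, Sparc, a matrix protein, ran through 0, 214 and 2597 CPM in HPC and had counts in 5 of 37 Mk cells. The transcription factor gene Maf (log2 ratio -7.04) and the growth factor gene Nrg1 (log2 ratio -6.01) showed the same direction, and of Cgnl1, a junction protein gene without counts in Mk, 1 HPC cell held 56.0% of the sum.

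The HPC cells themselves differed in the 2 markers Cd34 and Tubb1, which were chosen for this split after their values were seen. At 10 counts or more, 48 of 89 HPC cells had Cd34 without Tubb1, 18 had both, 19 had Tubb1 without Cd34 and 4 had neither, while 35 of 37 Mk cells had Tubb1 without Cd34. The sizes of these classes depended on the cut, since at 1 count 3 HPC cells had Tubb1 without Cd34 and 47 had both, and with cells thinned to 880000 counts 6 and 39. From 5 to 19 counts, near the cut, lay 4 HPC cells for Tubb1 and 3 for Cd34. In the 48 cells with Cd34 alone, medians were 135.7 CPM for Cdh5, 625 CPM for Hmga2, 99.5 CPM for Coro1a and 0.569 CPM for Gata1. In the 19 cells with Tubb1 alone they were 1.94 CPM for Cdh5, 70.4 CPM for Hmga2, 0 for Coro1a and 527 CPM for Gata1, with 6095 CPM for Hbb-bh1. The 18 cells with both lay at 117.3 CPM for Cdh5, 332 CPM for Hmga2 and 236 CPM for Gata1.

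At the cut of 10 counts, the 19 HPC cells with Tubb1 alone had 0 to 14.6 CPM of Cdh5, and 8 of them 10 counts or more, although they were sorted as CDH5+. Without the 13 HPC cells under 10 counts of Cdh5 and the 3 Mk cells with 10 or more, a setting added after the data were seen, 672 genes were higher in Mk and 1103 higher in HPC. Of the 96 named genes past 2-fold, 93 stayed past it in the same direction.

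**Figure D5:**
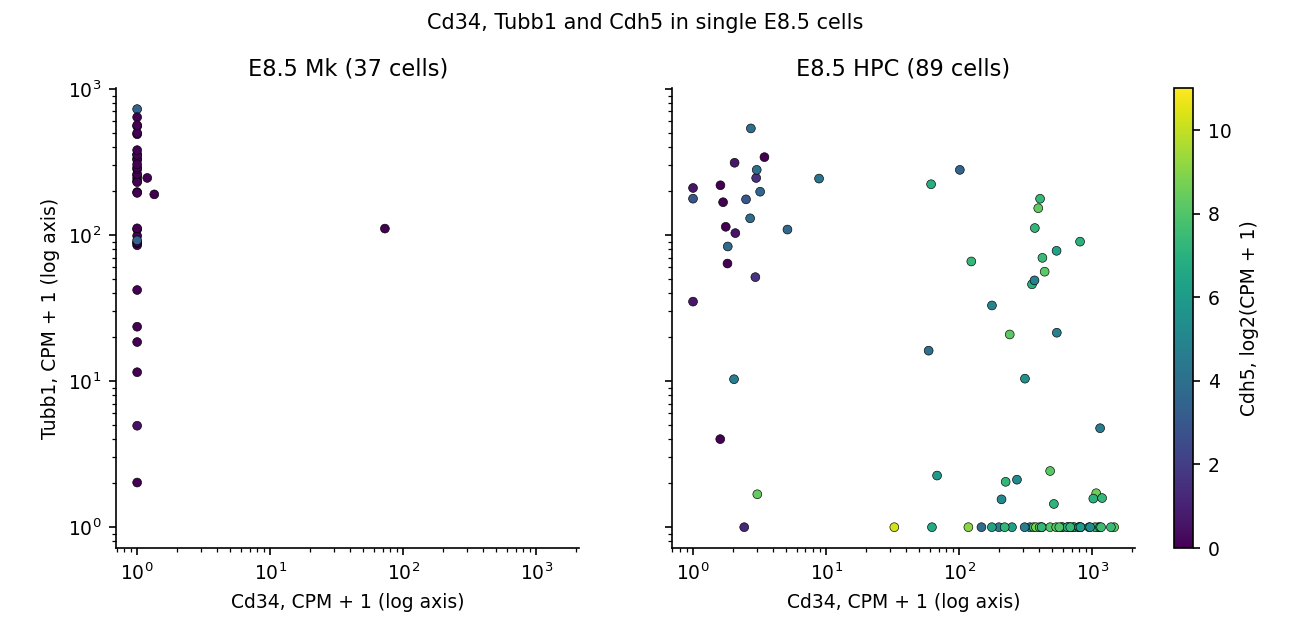
Cd34 (horizontal) and Tubb1 (vertical) in each E8.5 Mk cell (left, 37 cells) and E8.5 HPC cell (right, 89 cells), as CPM + 1 on log axes, with colour giving Cdh5 as log2(CPM + 1). All Mk cells but 1, at 71.7 CPM, lie at or near 0 for Cd34, while the HPC cells fall along both axes, with, at a cut of 10 counts, 48 cells holding Cd34 without Tubb1 and 19 the reverse, the latter low in Cdh5.

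Some genes of embryonic timing were higher in HPC. Of 11 described genes 5 (45.5%, against 11.1%) were higher in HPC, 3 of them meeting the limits in HPC alone, and none was higher in Mk. Hmga2, a chromatin protein repressed by let-7, lay at 0, 0 and 47.7 CPM in Mk and 0, 391 and 1891 CPM in HPC, and no Mk cell was above the HPC median. Trim71, a let-7 target, lay at 0, 2.90 and 289 CPM in Mk and 0, 263 and 3121 CPM in HPC, with 1 Mk cell above the HPC median. Igf2bp2, an RNA-binding partner, was 12.0-fold higher in HPC, and 1 Mk cell held 60.9% of its Mk sum. Lin28a, the let-7 inhibitor, was in 7 of 37 Mk and 78 of 89 HPC cells, with a log2 ratio of -1.07. For Lin28a 1 Mk cell held 49.4% of the Mk sum. Its ratio was under 2-fold with a pseudocount of 10 CPM (-0.86) and with counts summed over the cells (-0.97). Its paralogue Lin28b (log2 ratio -0.23) and Hmga1 (log2 ratio 0.04) lay within 2-fold. The order of the paralogues turned without the globin-rich cells, at -0.31 for Lin28a and -2.46 for Lin28b. The means of Hmga2 were 0.0553 CPM in EryP, 502 CPM in Endo and 5.35 CPM in E10.5 Mk.

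Few proliferation genes were past 2-fold. Of 24 S phase genes 1 (4.17%, near the 6.25% of all described genes) was higher in Mk (Cdt1, the origin licensing factor, log2 ratio 1.01), and of 29 G2 and mitosis genes 1 (3.45%) was higher in Mk (Cdc25b, log2 ratio 1.61) and 1 (3.45%, against 11.1%) in HPC (Kif11, log2 ratio -1.01, with 32.7% of the HPC sum in 1 cell). Cdt1 was under 2-fold with logs averaged over cells (log2 ratio 0.90) and over all captured cells (0.55). Mki67 had means of 455 and 402 CPM. Of 9 described G1 regulators 4 (44.4%, against 11.1% of all described genes) were higher in HPC and 1 (11.1%, against 6.25%) in Mk, Cdkn1a, the inhibitor p21, whose log2 ratio of 1.54 was -0.79 without the globin-rich cells. Of the 4 genes 2 met the level and cell limits in HPC alone, and Cdkn1a met them in Mk alone, so that the limits favoured both directions. Cdk6 lay at 0, 12.7 and 283 CPM in Mk and 0, 164 and 2229 CPM in HPC, Ccnd2 was 2.43-fold and Ccnd1 7.51-fold higher in HPC, and Ccnd3 (log2 ratio 0.54) and Cdk4 (log2 ratio -0.04) were level.

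Of 19 glycolysis genes 1 (5.26%, near the 6.25% of all described genes) was 2-fold higher in Mk (Pfkm, muscle phosphofructokinase, log2 ratio 1.61), and of 75 ribosomal protein genes none was in either direction (against 6.25% and 11.1%). Of 7 immediate early genes, which dissociation of tissue can induce, 3 (42.9%, against 6.25%) were higher in Mk. Among these Jun (log2 ratio 1.06) was under 2-fold with logs averaged over cells (0.53) and with cells thinned to a common depth (0.91). Egr1 lay at 0, 10.53 and 1746 CPM in Mk and 0, 0 and 517 CPM in HPC, and the antiproliferative gene Btg2 at 0, 249 and 1471 CPM and 0, 31.1 and 705 CPM. The part of cell handling in this difference was not tested. Of 5 described Notch pathway genes 1 (20.0%, against 11.1%) was higher in HPC (Maml2, log2 ratio -1.69). Mesoderm genes had no described member, the mesenchymal list 1, Col1a2 (log2 ratio 0.24), and the visceral endoderm list 1, Apoe, the lipid carrier gene, which was 4.03-fold higher in HPC at medians of 34.0 and 226 CPM, and at a log2 ratio of -0.91 without the globin-rich cells.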

How the data were processed

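Single cells were captured on a Fluidigm C1 chip and sequenced full-length as paired-end 100 base reads. Per the methods of the study, the authors used Rsubread for alignment, with Ensembl release 84 of the mouse genome (GRCm38), featureCounts for counts per gene and scater to filter cells and genes. The deposited count tables hold raw counts of the kept cells and of all captured cells. In the third deposited table the values are a signal, CPM that the authors scaled with scran size factors, so that the sum per cell varied, from 861732 to 2479406 in HPC. Columns of other groups were not used, 582 among kept and 684 among captured cells.

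Here a level was the mean CPM over a group's kept cells, and a difference the log2 ratio of (mean CPM + 1), Mk over HPC. Genes needed a mean of 10 CPM and a count in 10% of cells in either group. With 1 sample per group no test was run, and 2-fold was taken as the line. Shares of cells have exact 95% Clopper-Pearson intervals, at 1 count, at 10 counts and with cells thinned to 880000 counts. For a share of 0 the upper limit was 3 cells of the total, and in 1 list median genes without counts were set at a floor of 3 counts over the group. The genes named were the 10 farthest apart in each direction (mean of 100 CPM, 50% of cells), the 2 gate genes and, of each of 25 lists, the 5 largest past 2-fold in each direction and the 3 highest nearest to no difference. A few genes named by this rule are not reported here. Other genes are said to be chosen after their values were seen. Members and lists were chosen with earlier results of these data known. Doublets were not called, and cells with both Xist and Y-linked counts were left out in 1 alternative. The scripts (Python 3.11.15, numpy 2.4.6, pandas 2.3.3) were tested on simulated data. Promoter sequences were read from a RefSeq table of GRCm38.p6.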

Additional observations from a re-analysis of the deposited data

How the results depend on the processing

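Of all described genes 6.25% were higher in Mk and 11.1% in HPC, and over 14 alternatives 9 kept each share within 1.5 times. The share higher in Mk was 3.75% (336 genes) when logs were averaged over cells, 2.69% (241 genes) with a pseudocount of 10 CPM, 3.51% (89 of 2537 genes) at a mean of 100 CPM in 50% of cells, 1.20% at 4-fold and 12.2% (1102 genes) without cells with globins over 1%. The share higher in HPC was 6.48% (580 genes) with the pseudocount of 10 CPM, 20.03% (1750 genes) over all captured cells, 4.41% at the stricter filter, 4.77% at 4-fold and 20.9% (1887 genes) without globin-rich cells. With no filter the shares were close, but counts were 1015 and 2252 of 15967 genes. The stricter filter and fold lower the counts by construction, and the other causes were not tested. All captured cells shifted the median of all genes to -0.42. Of the 96 named genes past 2-fold, 72 stayed past it in the same direction without globin-rich cells and 83 to 96 under the 10 other settings that keep the fold.

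Leaving out globin-rich cells (10 Mk and 79 HPC cells left) reversed the globin median (-0.049, fixed by how the cells were chosen) and the log2 ratios of Hbb-y (-1.91), Hba-a2 (-0.44), Hba-a1 (-0.14), Klf1 (-1.28), Hbb-bs (-0.017), Slc25a37 (-1.02), Cpox (-1.98), Kel (-0.23), Ermap (-0.027), Trim10 (-1.23), Epb42 (-1.38), Plac8 (-1.65), Cdkn1a (-0.79) and Fcer1g (0.40). Averaging logs reversed Arhgef3 (-0.063). The share of cells with platelet and erythroid genes together was 67.6% of Mk and 16.9% of HPC at 10 counts, 73.0% of Mk at a common depth and 75.5% of Mk over all captured cells. No paired analysis was possible because the numbers in the cells' names pair no cells of the 2 groups. With 1 capture per group, the depth of single cells and the capture limit what these values can show.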
